A study of Mus musculus with 12 samples.

Results

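RNA polymerase II at the core of microglial promoters was described from ChIP-seq for Rpb2, the second largest subunit of the polymerase, which pulls down cross-linked DNA by an antibody to a protein and sequences it. Core peaks were the Rpb2 peaks of protein-coding genes that lay from 100 bp upstream to 200 bp downstream of the transcription start site (TSS), by the distance in the deposited annotation. They numbered 5955 of 26706 peaks in the table, or 22.3%, and belonged to 5828 genes. Of the peaks that were tested for a difference between genotypes, those within 1000 bp of a TSS, core peaks made up 58.8%. Position, gene type and no measured level chose them.

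Microglia were sorted as CD11b+CD45lo cells from brains of 2-mo-old mice on the C57Bl/6J background. WT mice carried 2 intact copies of *Cx3cr1*, the fractalkine receptor gene, and KO mice (*Cx3cr1* eGFP/eGFP) had both copies disrupted by eGFP. Each of the 4 Rpb2 libraries came from a pool of 3 mice of 1 sex, with a pool labelled female and another labelled male for each genotype, so n = 2 pools per genotype throughout. H3K27ac, an acetylated histone form found at active promoters and enhancers, was assayed in 4 pools of the same design. Because microglia were pooled before the assay, a lower signal in a pool could come from fewer cells with bound polymerase or from less polymerase per cell, and these cannot be told apart.

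Polymerase II is assembled at the core promoter with the general transcription factors, begins RNA synthesis and at many genes stops a short way downstream, held by the factors NELF and DSIF. Release into the gene body follows the kinase P-TEFb. Inflammatory and immediate-early genes of macrophages are textbook cases of genes that carry polymerase at the start before they are induced. Rpb2 ChIP-seq counts polymerase wherever it sits, and a peak at the core does not tell initiating from paused enzyme. Reads carried no strand, so polymerase of a divergent transcript is counted as well.

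Sequence letters that are classical promoter elements were looked up in the RefSeq windows of GRCm38.p6, the assembly also called mm10, from 250 bases before to 50 after an annotated start. A window whose start lay within 10 bp of the start used by the peak annotation was found for 4537 core peaks, or 76.2%, and for 4467 of them the match was exact. The TATA box, which binds TBP (letters TATAAA on the sense strand, 40 to 20 bases before the start), was found in 57 of these promoters. The bases just before the start are shown for those promoters with a TATA box that recur among the results, *H3f3b* and *Polr2a* for their high level and *Tnf* and *Mknk2* for their KO to WT comparison. Each sequence runs 5′ to 3′ on the strand of its gene, ends at the base before the start, and has the TATA box in capitals.
*H3f3b*, chr11:116024505-116024564, minus strand: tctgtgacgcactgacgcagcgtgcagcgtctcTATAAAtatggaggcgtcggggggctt
*Polr2a*, chr11:69758634-69758693, minus strand: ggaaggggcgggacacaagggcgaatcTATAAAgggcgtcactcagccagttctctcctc
*Tnf*, chr17:35202008-35202067, minus strand: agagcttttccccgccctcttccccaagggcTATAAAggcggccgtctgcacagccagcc
*Mknk2*, chr10:80676294-80676353, minus strand: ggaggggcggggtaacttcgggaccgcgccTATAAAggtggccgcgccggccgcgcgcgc

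Other elements are shown by 1 leading core promoter each. It is the one with the highest Rpb2 level among those with the letters before the start. Genes already chosen for another element, and some not reported here, were passed over. They are the CCAAT box of *Txnip*, which NF-Y binds, the GC box of *Rsrp1*, bound by Sp1 (letters GGGCGG), the site of PU.1 in *Rpl13a* (GAGGAAGT), the YY1 site of *Osbpl11* (AAGATGGCG) and the cAMP response element of *Btg2* (TGACGTCA). All these letters were searched on both strands, and the capitals mark the match, which reads as the reverse complement in *Rsrp1* and *Rpl13a*. Again each sequence ends at the base before the start.
*Txnip*, chr3:96557835-96557956, plus strand: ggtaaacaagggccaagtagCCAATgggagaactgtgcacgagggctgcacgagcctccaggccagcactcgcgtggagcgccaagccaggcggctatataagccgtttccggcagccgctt
*Rsrp1*, chr4:134923525-134923624, plus strand: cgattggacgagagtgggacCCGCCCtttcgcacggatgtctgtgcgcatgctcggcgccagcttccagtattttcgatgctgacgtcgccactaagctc
*Rpl13a*, chr7:45128746-45128809, minus strand: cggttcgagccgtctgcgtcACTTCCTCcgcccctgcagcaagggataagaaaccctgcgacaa
*Osbpl11*, chr16:33184982-33185070, plus strand: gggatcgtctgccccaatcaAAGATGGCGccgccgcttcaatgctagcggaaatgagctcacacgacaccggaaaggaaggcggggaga
*Btg2*, chr1:134079156-134079341, minus strand: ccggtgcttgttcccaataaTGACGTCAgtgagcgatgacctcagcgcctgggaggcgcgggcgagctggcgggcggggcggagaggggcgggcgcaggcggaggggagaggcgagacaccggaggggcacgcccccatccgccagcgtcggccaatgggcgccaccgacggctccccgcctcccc

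Depth and labels were examined before the comparisons. Totals ran from 11662185 reads in the library labelled WT female to 44332626 in the KO female, and the median core peak held 61 and 74 reads in the WT female and male and 232 and 106 in the KO female and male. Between 5 and 17 core peaks were at 0 reads in a library, and 1 was at 0 in both WT libraries. The library labelled WT female held 136 reads in peaks of Y-linked genes, against 214 in the WT male, 266 in the KO male and 0 in the KO female. Its sex label is therefore in doubt, it is called the library labelled WT female throughout, and the counts of peaks by genotype are also given without it. *Cx3cr1* had its core peak at chr9:120068092-120068332, with a level of 1994 and 2095 in WT and 1977 and 1840 in KO, on the scale explained below. Whether the eGFP insertion removes the bases of that peak is not given in the sources used here, so the peak does not check the genotype. Of 8 defining microglial markers, 5 had a core peak, among them *Cx3cr1*, *P2ry12*, *Tmem119* and *Siglech*. Core peaks were found for 0 of 8 marker genes of neurons, 0 of 7 of astrocytes, 0 of 7 of monocytes and neutrophils and 0 of 10 of lymphocytes. Among oligodendrocyte markers 2 of 9 had one (*Mbp* and *Cnp*), and *Pecam1* was the single one of 6 endothelial markers.

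Core peaks were narrow and sat mostly just downstream of the start. Their median width was 245 bp (197 to 619 bp), and the median centre lay 56 bp downstream of the TSS, with an interquartile range from 20 to 93 bp. Downstream centres made up 83.7% of them. The deposited annotation placed 4970 in the promoter-TSS class, 564 in a 5′ UTR, 228 in an exon and 99 in an intron. The most filled stretch of 50 bp, from 50 to 99 bp downstream, held 2030 peaks, and the stretch from 100 to 51 bp upstream held 318. At the upper edge, *Bola3*, *Rreb1*, *Susd3* and *Tmco6* lay at exactly 200 bp, with 39 to 914 reads in the KO female library, and the 5 peaks 1 bp beyond it held 35 to 323. At the lower edge, *Acot7*, *Dgcr6*, *Polr2m* and *Xpot* lay 100 bp upstream with 145 to 227 reads in the same library, and the 8 peaks 1 bp further out held 42 to 586. At both edges the ranges inside and outside overlapped in this library, with few peaks on either side.

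**Figure D1:**
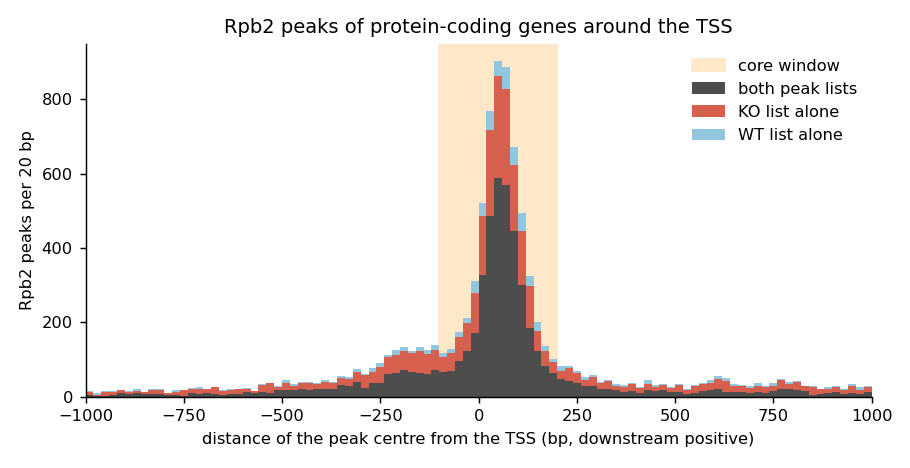
Number of Rpb2 peaks of protein-coding genes per 20 bp against the distance of the peak centre from the TSS, stacked by the peak list that held them, with the core window shaded. Peaks crowd between the start and 100 bp downstream, and those of both lists make up most of the core.

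Peaks had been called per genotype and kept where both pools agreed, and the WT and KO lists were then merged. Of the core peaks, 3695 (62.1%) came from both lists, 1821 (30.6%) from the KO list alone and 439 (7.37%) from the WT list alone. The KO libraries were the deeper ones in total reads. Most genes had a single core peak (5703), 123 had 2, and *Snx10* and *Tgif1* had 3.

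Among 4 classes of position, the core had the highest median density of polymerase. Scaled to peak width and library total (RPKM), the median core peak was at 20.2 for the library labelled WT female, 21.1 for the WT male, 20.5 for the KO female and 24.8 for the KO male. Protein-coding peaks further upstream, up to 1000 bp from a start, had 17.9, 17.6, 18.5 and 23.2 in the same order. Those further downstream, up to 1000 bp, had 13.3, 13.4, 13.5 and 16.9. Peaks over 1000 bp downstream, in an intron, exon, UTR or gene end (the body), had 6.06, 5.94, 7.33 and 9.49. The order core, upstream, downstream, body was the same in each of the 4 libraries. It did not hold in each stretch of 50 bp, since the 321 peaks from 200 to 151 bp upstream had a median of 193 CPM per kb, counted over reads in peaks and averaged over libraries, against 148 to 188 in the stretches of the core.

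Core promoters were richer in G and C and in several promoter elements than promoters at large, which is given as a description with no test. The median share of G and C in the peak itself was 66.4% for core peaks, 61.3% for the other tested peaks and 53.7% over the whole table. Over the matched 300-base windows it was 61% against 56.3% in 21263 windows of 17492 protein-coding genes. CpG dinucleotides occurred at a median of 0.794 of the number expected from base composition, against 0.567 for all windows, and 8.04% of core promoters had a value under 0.4, against 39.4% of all. GC boxes were found in 69.1% of core promoters and 46.2% of all, and ETS letters (CCGGAAG) in 22.9% and 11.6%. NRF1 letters (TGCGCATGC) were found in 3.97% and 1.98%, YY1 letters in 4.5% and 1.83%, the cAMP response element in 3.9% and 2.23%, and the E-box (CACGTG) in 11.4% and 7.84%. CCAAT boxes (40.8% and 38.2%) and PU.1 letters (3.92% and 3.13%) were closer to their shares in all promoters. The TATA box (1.26% against 2.53%) and the AP-1 site (TGACTCA, 3.17% against 4.66%) were the less frequent ones in core promoters. Several of these elements consist of G and C or hold a CpG, matches can overlap each other, and a match is a description of the window.

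Core promoters with a TATA box were few but carried high levels. Here and below, the Rpb2 level is the CPM of a peak per kilobase of its width, where CPM is counted over the reads in the tested peaks after TMM normalization. The median level, averaged over libraries, was 758 for the 57 peaks with a TATA box and 307 for those without, a ratio of 2.47. Of the TATA box peaks, 87.7% came from both peak lists. For the other elements the median level with the letters ran from 294 (AP-1) to 369 (cAMP response element), against 291 to 309 without them.

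The level of core peaks spanned a wide range and was similar in order across libraries. The interquartile range was 184 to 542 in WT and 175 to 520 in KO, and the median was 309 in WT and 298 in KO. Peaks at the 90th percentile exceeded those at the 10th by 7.80-fold in WT and 7.78-fold in KO. Spearman's correlation between the levels of 2 libraries ran from 0.797 to 0.870 over the 5955 peaks, which share the width of each peak and its base composition. Between the WT pools the median absolute log2 difference of a core peak was 0.417, and between the KO pools it was 0.354.

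The 10 highest levels included genes of the immediate-early response and of transcription itself. *Txnip*, which binds thioredoxin and lowers glucose uptake, had a level of 4537 and 3481 in the WT pools and 4659 and 5251 in the KO pools, given here and below with the pool labelled female first. *H3f3b*, a gene of the replacement histone H3.3, had 4340 and 3830 in WT and 4282 and 5009 in KO. *Polr2a*, the gene of the largest polymerase subunit, had 3549 and 4026 in WT and 4241 and 4452 in KO. The KO and WT pools overlapped for *H3f3b*, while both KO pools of *Txnip* and *Polr2a* lay above both WT pools. For *Txnip* the lower KO pool was nearer to 1 WT pool than the WT pools were to each other. *Junb*, an AP-1 subunit, had the widest spread in WT, with 2876 and 3971 against 3998 and 4651 in KO. *Rsrp1*, *Rhob* (a small GTPase), *Sgk1* (a kinase), *Rgs2* (a regulator of G protein signalling), and *Btg2*, which restrains the cell cycle, were also among them. Log2 fold changes of KO over WT at the 9 peaks named here lay between −0.10 for *Sgk1* and 0.34 for *Junb*, and the lowest adjusted p was 0.515 (edgeR's quasi-likelihood test, Benjamini-Hochberg adjusted). Without the WT male library, the value for *Sgk1* was 0.09.

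**Figure D2:**
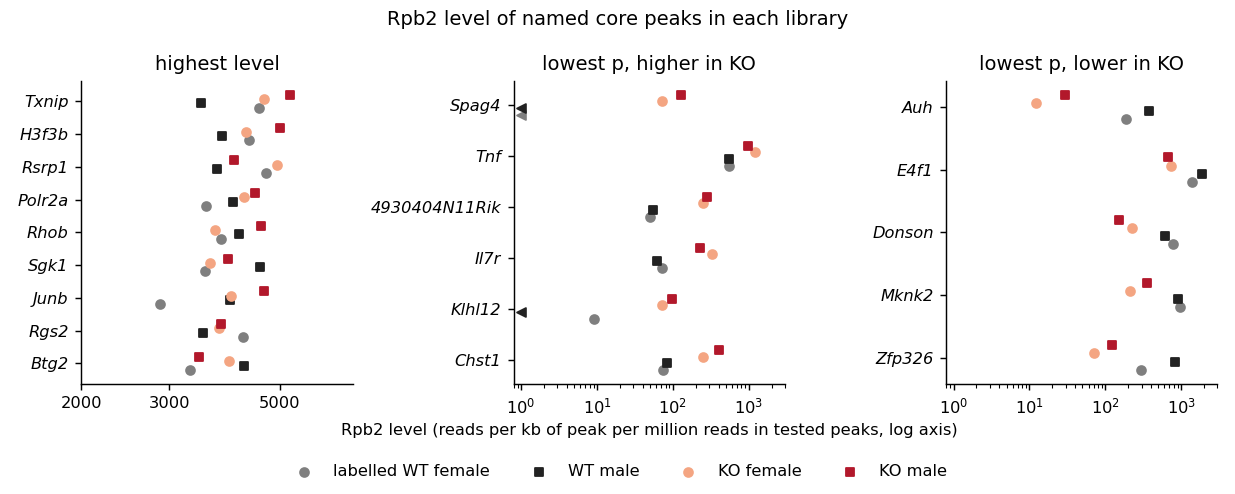
Rpb2 level (CPM in tested peaks per kilobase of peak, log axis) of named core peaks, 1 point per library, for 9 of the 10 highest peaks and for peaks with the lowest p in each direction. Triangles at the left edge mark libraries at 0 reads, and the left panel has its own axis range. *Auh* lies at 188 and 379 in WT against 12.3 and 29.4 in KO, and *Tnf* at 556 and 554 against 1219 and 986.

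No core peak passed the test between genotypes, and among those with an unadjusted p under 0.05 more were lower than higher in KO. With p-values of edgeR's quasi-likelihood test, adjusted by Benjamini-Hochberg over 10125 peaks, 0 core peaks had an adjusted p under 0.05 (0% of all tested peaks), and the lowest adjusted p was 0.116. Without adjustment 648 core peaks (10.9%) had a p under 0.05, against 10.6% of all tested peaks. Of these, 221 were higher in KO (3.71%, against 4.42% of all tested peaks) and 427 were lower (7.17%, against 6.13%). All tested peaks include the core, and of the 4170 tested peaks outside it 227 were higher (5.44%) and 194 lower (4.65%), the opposite split. Whether the splits differ beyond the spread between pools was not tested. Outside the core, 373 peaks were higher and 223 lower without the library labelled WT female. Both KO pools lay outside the range of both WT pools at 2498 core peaks (41.9%, against 42.1%), 1190 of them higher (against a background of 21.7% of all tested peaks) and 1308 lower (against 20.4%). The median log2 fold change was −0.01 over core peaks, 0.02 over all tested peaks and 0.07 over the tested peaks outside the core. A difference of at least 2-fold in either direction was fitted at 612 core peaks (10.3%), against 11.7% of all tested peaks and 13.7% of those outside the core. With the model fitted over all peaks of the table, the median core log2 fold change shifted to −0.14, and 102 of 691 core peaks with an unadjusted p under 0.05 were higher in KO.

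Calls rested on the libraries that were used. DESeq2 called 14 core peaks, all lower in KO. Without the library labelled WT female, edgeR called 142 core peaks, 45 higher and 97 lower, with the remaining WT pool assumed to vary like the KO pools. Without the WT male it called 42, without the KO female 8 and without the KO male 12. The split by direction moved with the library too, since 330 of 820 core peaks with an unadjusted p under 0.05 were higher in KO without the library labelled WT female, and 362 of 701 without the WT male.

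The genotype comparison differed between the peak lists. Since membership of a list was set from reads of the same libraries, these counts are a description. Of 1821 core peaks of the KO list alone, 125 were higher and 19 lower in KO with an unadjusted p under 0.05. Of 439 peaks of the WT list alone, 1 was higher and 132 were lower. Peaks of both lists had 95 higher and 276 lower, with a median log2 fold change of −0.07. The counts of higher and lower peaks without the library labelled WT female were 240 and 30 for the KO list, 4 and 137 for the WT list and 86 and 323 for both.

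Lower signal in KO gathered at core peaks rich in G and C. In the quartile of core peaks with the highest share of G and C, whose median was 72.8%, the WT libraries had a median level of 304 (labelled female) and 354 (male), and the KO libraries one of 245 (female) and 249 (male). KO and WT libraries thus lay apart there. The median log2 fold change was −0.40 in this quartile, and 297 of its 1490 peaks were lower and 13 higher in KO with an unadjusted p under 0.05. In the quartile with the lowest share, with a median of 57.4%, the median log2 fold change was 0.14, and 24 of 1489 peaks were lower and 87 higher. The 2 middle quartiles had medians of 0.13 and −0.02. Without the library labelled WT female, the median was −0.46 in the highest quartile, with 352 peaks lower and 20 higher, and 0.17 in the lowest, with 22 lower and 137 higher. Without the WT male, 193 peaks were lower and 40 higher in the highest quartile, whose median was −0.27. With offsets that remove a smooth trend of each library on the share of G and C, an alternative chosen after the data were seen, the medians of the 4 quartiles were −0.02, 0.03, 0.03 and 0.02. Over all core peaks, 221 were then higher and 228 lower in KO with an unadjusted p under 0.05, and edgeR's quasi-likelihood test called 0. H3K27ac peaks around the same core peaks had medians of 0.13, 0.07, 0.09 and 0.08 in the 4 quartiles. Whether the trend arose in the libraries or in the cells was not tested.

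**Figure D3:**
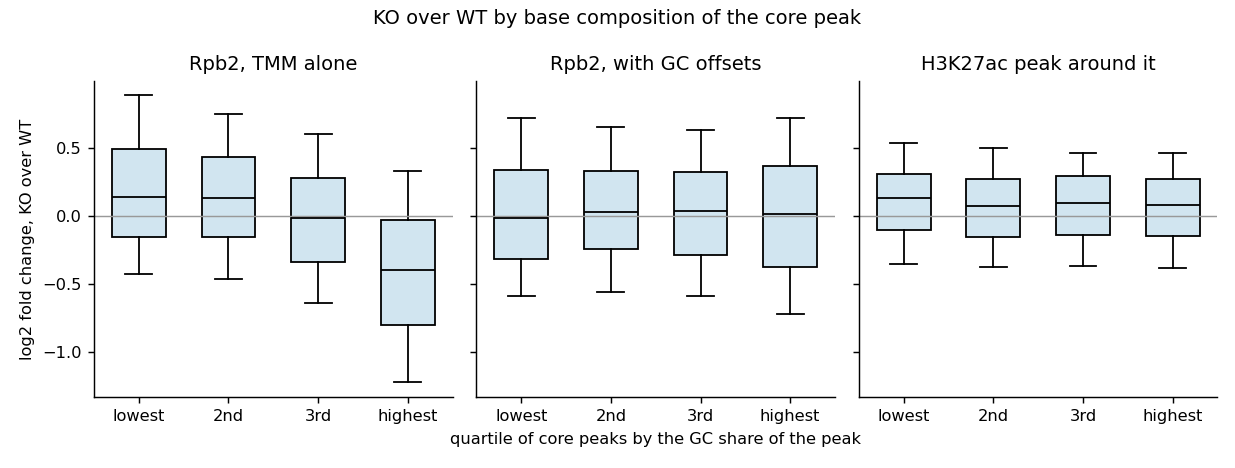
Log2 fold change of KO over WT (vertical axis) in quartiles of core peaks by their share of G and C, for Rpb2 with TMM alone, Rpb2 with GC offsets and the surrounding H3K27ac peak. Boxes span the quartiles with the median as a line, and whiskers reach the 10th and 90th percentiles. The median drops to −0.40 in the quartile richest in G and C with TMM alone, and lies between −0.02 and 0.03 in all quartiles with offsets.

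Position within the core and promoter letters went with smaller differences. The median log2 fold change ran from 0.02 for the 318 peaks 100 to 51 bp upstream of the start to −0.115 for the 325 peaks 150 to 200 bp downstream. The median share of G and C was 63.2% in the first of these stretches and 68.1% in the last. Stretches between them did not form a steady trend, with −0.058 from 50 to 1 bp upstream (64.9% G and C) and 0.009 from 0 to 49 bp downstream (66.1%). Promoters with a GC box had a median of −0.04, with 112 peaks higher and 261 lower in KO by an unadjusted p under 0.05 (11.9%, against 8.41% of promoters without one), and those without one had a median of 0.05. Those with a TATA box had a median of 0.04, with 3 peaks higher and 6 lower (15.8%, against 10.8% without the letters). PU.1, a transcription factor that defines the myeloid lineage, had letters in 178 core promoters, whose median log2 fold change was 0.09, with 13 peaks higher and 10 lower (12.9%, against 10.7% without). Leaving out the library labelled WT female, 11 peaks with PU.1 letters were higher and 5 lower.

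Among core peaks higher in KO, those with the lowest p were at *Spag4*, *Tnf*, *4930404N11Rik*, *Il7r*, *Klhl12* and *Chst1*. These peaks, and the lower ones below, were chosen among those whose WT and KO pools did not overlap, so their separation is part of the choice. *Tnf*, the gene of the inflammatory cytokine TNF, had a TATA box promoter (shown above) and a core peak at chr17:35201767-35202080. The library labelled WT female put its level at 556 and the WT male at 554, while the KO pools put it at 1219 (female) and 986 (male). Both KO pools were well above the WT pools, which were nearly equal. The log2 fold change was 0.99 (adjusted p = 0.146, SE 0.24, edgeR's quasi-likelihood test, Benjamini-Hochberg adjusted) and 0.83 with GC offsets. *Il7r*, the receptor chain for interleukin 7, had a level of 72.7 and 61.0 in WT and 329 and 227 in KO, from 14 reads in each WT library and 250 and 80 reads in the KO libraries. *Chst1*, a carbohydrate sulfotransferase, had 74.1 and 82.9 in WT against 252 and 408 in KO, from 12 and 16 against 161 and 121 reads. Their adjusted p was 0.208 (edgeR).

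*Spag4*, which encodes a SUN domain protein, was the core peak at 0 reads in both WT libraries. KO libraries gave it 54 (female) and 44 (male) reads, which makes it at least 13.8-fold higher in KO when 3 reads over both WT libraries are taken as the floor (adjusted p = 0.122, edgeR's quasi-likelihood test). Reads carried no molecular identifiers, so this floor covers counting error only. *Klhl12*, an adaptor of a ubiquitin ligase, held 2 and 0 reads in WT against 61 and 38 in KO. *4930404N11Rik* held 10 and 13 reads in WT against 193 and 103 in KO. All these peaks other than *Tnf* came from the KO list alone, that is, were called only in the genotype where they were higher, and had few reads in WT.

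Core peaks lower in KO with the lowest p included those at *Auh*, *E4f1*, *Donson*, *Mknk2* and *Zfp326*. All 5 came from the WT list alone and were thus called only in the genotype where they were higher. *Auh* encodes an enzyme of leucine breakdown that also binds AU-rich RNA. Its core peak, at chr13:52929463-52929704, had a level of 188 and 379 in WT and 12.3 and 29.4 in KO, from 35 and 84 against 9 and 10 reads. The KO pools lay far below, although the WT pools themselves were far from each other. *E4f1*, a transcription factor and ubiquitin ligase, had 1398 and 1895 in WT against 723 and 659 in KO. There the log2 fold change was −1.25 (adjusted p = 0.116, SE 0.25, edgeR) and −1.21 with GC offsets.

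*Donson*, a replication fork factor, had a level of 779 and 608 in WT and 221 and 152 in KO. *Mknk2*, a kinase of the translation factor eIF4E with a TATA box promoter (shown above), had 959 and 897 against 209 and 354. *Zfp326*, which encodes an RNA-binding zinc finger protein, had 292 and 827 against 70.7 and 124. Of these 3, *Zfp326* had the WT pools furthest from each other. With GC offsets the log2 fold changes of *Donson*, *Mknk2* and *Zfp326* moved from −1.88, −1.74 and −2.56 to −1.26, −1.33 and −1.95. *Klhl42*, an adaptor of a ubiquitin ligase, had no core peak.

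Microglia signature genes had high levels at their cores. Of 40 genes in the list, 32 had a core peak, with a median level of 1225 in WT and 1145 in KO, against 312 and 301 over all 5828 core genes. *Tmem119*, a microglial membrane protein, had 1202 and 1673 in WT and 1644 and 1587 in KO, and *P2ry12*, a purine receptor, had 688 and 763 against 714 and 677. Pools overlapped between genotypes at *Tmem119* and *P2ry12*.

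The signature genes' median log2 fold change was 0.09, with 17 above 0 and 15 below, and by an unadjusted p under 0.05 1 was higher and 4 were lower in KO, against 219 and 420 of all 5828 core genes. For the counts in every list that follows, the background is the same 219 higher and 420 lower of 5828 core genes. Over core peaks that was 3.71% higher and 7.17% lower. Genes given by that count here and in the lists that follow were chosen after their values were seen. *Irf8*, a transcription factor of the mononuclear phagocyte lineage, had a level of 2024 and 2345 in WT against 1273 and 1056 in KO. The fitted log2 fold change was −0.91 (adjusted p = 0.116, SE 0.19, edgeR's quasi-likelihood test) and −0.99 with GC offsets. These values are of the core peak with more reads, which stands for the gene in the lists. A second core peak of *Irf8*, 2281 bp away and at a lower level, had 152 and 216 in WT against 278 and 169 in KO. Its pools overlapped between genotypes, and its log2 fold change was 0.29 (SE 0.51). *Adgrg1*, an adhesion receptor, had the higher value in KO, with 43.2 and 177 in WT against 267 and 416. *Golm1* (a Golgi protein) and *Ptprc*, the gene of the surface marker CD45 on which the cells were sorted, had log2 fold changes of −0.81 and −0.59 with adjusted p of 0.367 and 0.464 (edgeR). With GC offsets they were −0.43 for *Golm1* and −0.80 for *Ptprc*. The list had 2 genes higher and 3 lower, and a median of 0.01, when the library labelled WT female was left out.

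Immediate-early genes, which respond within minutes to stimulation, had a median level of 833 in WT and 1274 in KO over the 22 of 32 with a core peak. Their median log2 fold change was 0.13, with 15 above 0 and 7 below. The median level and the median log2 fold change need not be those of the same gene. *Klf2*, a transcription factor that restrains inflammation, had the single unadjusted p under 0.05 in the list. It held 159 and 232 reads in WT against 1078 and 594 in KO, and its level was 948 ± 135 in WT and 1602 ± 194 in KO (SD, n = 2 pools each). That is a log2 fold change of 0.75 (adjusted p = 0.241, SE 0.23, edgeR's quasi-likelihood test), and 0.85 with GC offsets. Among high values, chosen after they were seen, *Gadd45b* and *Klf10* had log2 fold changes of 0.63 and 0.64. *Nr4a1*, an orphan nuclear receptor, had one of 1.12 from 14 and 25 reads in WT against 121 and 85 in KO. The lowest log2 fold change of the list was −0.33. With the offsets the median of the list was 0.04, and without the library labelled WT female it was 0.10, with 2 genes higher and 0 lower.

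Genes of the NF-κB pathway and inflammatory cytokines did not share a direction. Of 36 genes 23 had a core peak, with a median level of 540 in WT and 507 in KO, a median log2 fold change of −0.05, 10 above 0 and 13 below. Next to *Tnf*, the list had 1 lower gene by an unadjusted p under 0.05, *Myd88*, the adaptor of Toll-like receptors, with levels of 1001 ± 6.45 in WT and 660 ± 82.1 in KO (SD, n = 2 pools each). *Il1a*, the cytokine IL-1α, was at 1118 ± 177 and 1562 ± 192 (SD, n = 2 each). *Nfkbia*, which encodes the inhibitor IκBα and led the list by level (here and below, by the mean level over the 4 libraries), was at 2438 ± 226 and 1868 ± 215 (SD, n = 2 each). WT and KO pools were apart for these 3 genes, with KO the higher at *Il1a* and the lower at *Myd88* and *Nfkbia*. *Icam1*, an adhesion molecule, was at 1576 ± 129 and 1714 ± 92.5 (SD, n = 2 each), a difference about the size of the SD of its WT pools.

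Factors that hold and release paused polymerase had 21 core peaks among 39 listed symbols, older symbols included. Their median level was 367 in WT and 359 in KO, close to that of all core genes, and the median log2 fold change was 0.09. By an unadjusted p under 0.05, 0 were higher and 2 lower, *Aff4* and *Aff1*, both scaffolds of the super elongation complex. *Aff4* held 25 and 174 reads in the WT pools and 91 and 27 in the KO pools, and its WT level, 523 ± 523 against 116 ± 36.0 in KO (SD, n = 2 each), was as uncertain as it was high. *Aff1* had a level of 1342 ± 329 in WT and 794 ± 83.9 in KO (SD, n = 2 each), a log2 fold change of −0.76 and −0.32 with GC offsets. *Pcf11*, a termination factor, and *Hexim1*, an inhibitor of P-TEFb, had the highest mean levels over the 4 libraries, although *Aff1* was above both in WT. They were at 1146 ± 37.0 and 1047 ± 79.7 in WT and 1361 ± 41.8 and 1420 ± 287 in KO (SD, n = 2 each).

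**Figure D4:**
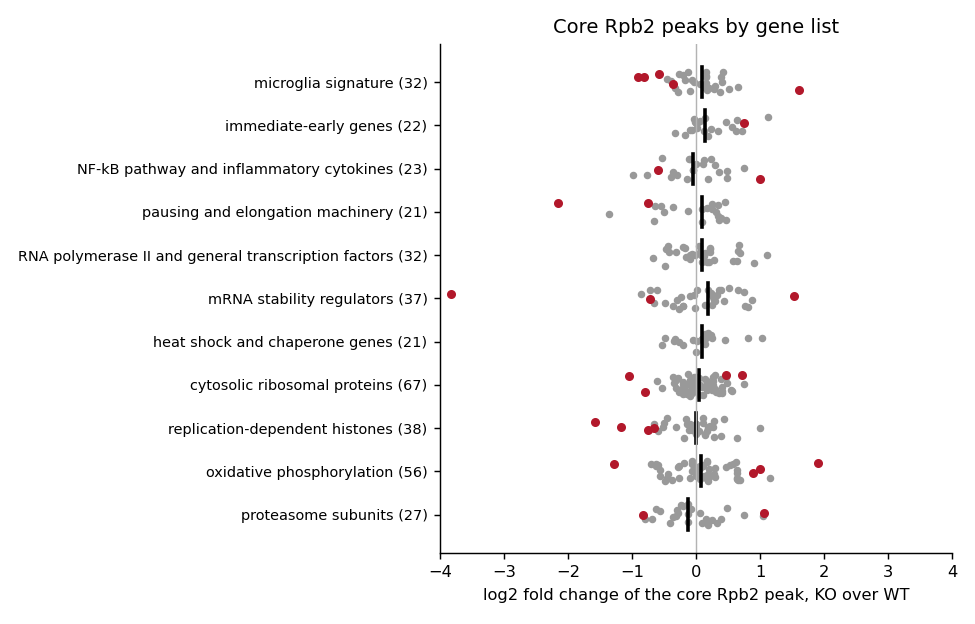
Log2 fold change of KO over WT (horizontal axis) at the core peak of each gene in 11 lists, 1 point per gene, with the median as a black bar and the number of genes in brackets. Red points have an unadjusted p under 0.05, and the medians lie between −0.13 for proteasome subunits and 0.18 for mRNA stability regulators.

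Subunits of polymerase II and the general transcription factors had 32 core peaks among 46 symbols. Here 0 were higher and 0 lower by an unadjusted p under 0.05, and the log2 fold changes ran from −0.68 (*Ercc3*, a helicase of TFIIH) to 1.10. *Polr2b*, the gene of Rpb2 itself, held 41 and 22 reads in WT against 147 and 135 in KO, with levels of 168 ± 89.9 and 313 ± 145 (SD, n = 2 each) and a log2 fold change of 0.90 (adjusted p = 0.588, SE 0.54, edgeR's quasi-likelihood test). *Taf13*, a subunit of TFIID, was at 2342 ± 371 in WT and 2725 ± 43.8 in KO (SD, n = 2 each).

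Regulators of mRNA stability had 37 core peaks among 55 genes, with a median level of 311 in WT and 355 in KO and a median log2 fold change of 0.18. Besides *Auh*, 1 was lower by an unadjusted p under 0.05, *Zfp36l2*, a protein that binds AU-rich elements, at 1187 ± 238 in WT and 721 ± 216 in KO (SD, n = 2 each). *Upf3b*, a factor of nonsense-mediated decay, was the 1 higher gene and held 3 and 37 reads in WT against 226 and 79 in KO. *Zfp36* and *Zfp36l1*, which belong to the same family as *Zfp36l2* and had the highest levels of the list, were at 3172 ± 488 and 2950 ± 109 in WT and 3709 ± 306 and 3462 ± 544 in KO (SD, n = 2 each). Their log2 fold changes were 0.22 and 0.23, against −0.73 for *Zfp36l2*.

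Housekeeping groups spread around 0. Cytosolic ribosomal protein genes had 67 core peaks with a median level of 745 in WT and 820 in KO, a median log2 fold change of 0.04, and 2 higher (*Rpl4* and *Rps12*) and 2 lower (*Rpl35* and *Rps10*) by an unadjusted p under 0.05. *Rps10*, with a peak of 76.0% G and C, moved from −0.80 to −0.10 with GC offsets. Oxidative phosphorylation genes had 56 core peaks and a median of 0.08, with *Ndufs6*, *Cox7a2l* and *Ndufa5* higher and *Uqcrc1* lower. *Uqcrc1*, a core subunit of complex III, held 65 and 130 reads in WT against 177 and 47 in KO (log2 fold change −1.29). Proteasome subunits had 27 core peaks and a median of −0.13, with *Psmb9*, a subunit of the immunoproteasome, higher (35 and 68 reads in WT, 434 and 150 in KO) and *Psmb1* lower. Heat shock and chaperone genes had 21 core peaks and a median of 0.09, with 0 in each direction, and *Hspa5*, a chaperone of the endoplasmic reticulum, led them at 2358 ± 434 in WT and 2585 ± 255 in KO (SD, n = 2 each). The genes with the highest levels in these groups had no adjusted p under 0.05. *Rpl3* was at 2670 ± 48.5 in WT and 2858 ± 423 in KO (SD, n = 2 each), and *Rps9* at 2797 ± 79.5 and 2238 ± 57.5. *Ndufb9*, a subunit of complex I, was at 1097 ± 56.5 and 1233 ± 209, and *Psmb6*, a catalytic proteasome subunit, at 681 ± 345 and 624 ± 159. Of these 4, the pools of *Rps9* were apart between genotypes, with an adjusted p of 0.558 (edgeR). Among MHC class II genes 1 of 10 had a core peak, *H2-DMa*.

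Replication-dependent histone genes, 38 of 45 with a core peak, had a median level of 721 in WT and 720 in KO. By an unadjusted p under 0.05, 0 were higher and 4 lower in KO, *Hist1h3i*, *Hist1h3e*, *Hist1h4a* and *Hist1h2ab*. Over all 5828 core genes 219 were higher and 420 lower, so lower genes were also the more frequent ones there. *Hist1h3i* held 89 and 148 reads in WT against 146 and 63 in KO, with levels of 623 ± 145 and 209 ± 10.8 (SD, n = 2 each) and a log2 fold change of −1.58 (adjusted p = 0.146, SE 0.39, edgeR's quasi-likelihood test). *Hist1h4c* and *Hist1h1e*, the highest of the list, were at 3038 ± 683 and 2849 ± 119 in WT and 3634 ± 889 and 2849 ± 439 in KO (SD, n = 2 each). *Hist1h3e* was at 1684 ± 44.5 in WT and 1064 ± 78.5 in KO (SD, n = 2 each). The peaks of these 4 genes had 50.4% to 62.6% G and C, below the median of core peaks, and with GC offsets their log2 fold changes were −1.75, −0.79, −0.91 and −1.35. Histone genes are close copies of each other and only uniquely mapped reads were counted, so values of single copies are uncertain. Of the other cell types, the oligodendrocyte genes *Mbp* and *Cnp* both had an unadjusted p under 0.05 and were lower in KO, *Cnp* at 754 and 779 in WT against 498 and 471 and *Mbp* at 175 and 87.4 against 37.2 and 46.6, and their part in the other differences was not tested. The *Mbp* peak came from the WT list alone. With GC offsets the log2 fold change moved from −0.66 to −0.44 for *Cnp* and from −1.65 to −1.15 for *Mbp*, and the unadjusted p rose to 0.141 and 0.137 (edgeR). Neither had an unadjusted p under 0.05 without the library labelled WT female.

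The counts by unadjusted p in these lists depended on base composition and on the libraries. With GC offsets the p of *Golm1*, *Aff1*, *Aff4*, *Upf3b*, *Cox7a2l*, *Rpl35*, *Rps10* and *Rps12* was no longer under 0.05. Without the library labelled WT female, proteasome subunits had a median log2 fold change of 0.04 in place of −0.13, histone genes had 1 higher and 3 lower, polymerase subunits and general factors had 3 higher and 0 lower, and ribosomal protein genes had 4 higher and 1 lower.

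Summed over genes with both kinds of peak, the core took about as many reads as all body peaks together. In the median gene the core took the larger part. Body peaks were those over 200 bp downstream of the nearest start that lay in an intron, exon, UTR or gene end. They were credited to the gene of that start. Whether the intron or exon belonged to the same gene was not checked, so some may lie in a neighbouring gene. Of the core genes, 1795 (30.8%) had at least 1 body peak, with 20 reads or more in each region. Summed over these genes, the core held 52.8% of core and body reads for the library labelled WT female, 54.8% for the WT male, 49.9% for the KO female and 49.8% for the KO male. Medians over genes were 63.3%, 66.9%, 59.8% and 60.1%. In the sum and in the median, the WT libraries were the higher ones. Among body peaks over 1000 bp downstream, 18.0% came from both peak lists, against 62.1% of core peaks. Peaks called in 1 genotype alone thus entered these shares, which are a description. Of the microglial markers, *Cx3cr1* had 12.4% to 14.8% of its reads in the core, with 19 body peaks.

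The ratio of core to body reads was tested gene by gene between genotypes, in 1 model with a term for each library. With edgeR's quasi-likelihood test 0 of 1795 genes passed an adjusted p of 0.05 (0%), and the lowest adjusted p was 0.0912. Without adjustment 250 genes (13.9%) had a p under 0.05, 88 with a higher and 162 with a lower core share in KO, and the median log2 change of the ratio was −0.05. All 22 genes whose body peaks were at 0 in both WT libraries were among the 250, and in all 22 every body peak came from the KO list alone. Their lower core share in KO was thus set by the peak calling and is a description. Such genes led by p, namely *Prrc2c*, *Lrmp*, *Cbl* and *Yars2*, with *Arhgef7*, whose body peak also came from the KO list alone, among them. *Prrc2c* had 99 and 115 core reads and 0 body reads in WT, and 225 and 87 core reads and 66 and 33 body reads in KO. *Arhgef7*, a guanine nucleotide exchange factor, had 228 and 270 core reads and 3 and 2 body reads in WT, and 721 and 375 core reads and 136 and 38 body reads in KO. Without the library labelled WT female 95 genes were called, without the WT male 114, without the KO female 12 and without the KO male 3. With peaks of both lists alone, 545 genes could be tested, 50 had an unadjusted p under 0.05, and the median log2 change was 0.08.

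**Figure D5:**
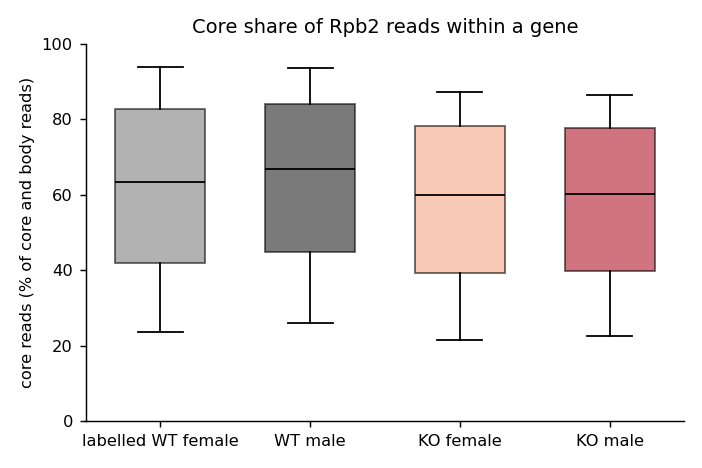
Percentage of core and body reads that lay in the core, over 1795 genes with both kinds of peak, in each library. Boxes span the quartiles with the median as a line, and whiskers reach the 10th and 90th percentiles. Medians are 63.3% and 66.9% in the WT libraries and 59.8% and 60.1% in the KO libraries.

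As a share of all reads in Rpb2 peaks, core peaks took 37.1% (labelled female) and 38.3% (male) for WT, against 35.3% (female) and 34.9% (male) for KO. The means were 37.7% ± 0.837 in WT and 35.1% ± 0.258 in KO (SD, n = 2 pools each), a difference of −2.55 percentage points. An exact permutation test of 2 libraries against 2 gave p = 0.33, two-sided, which is the smallest p the design allows. As a share of all reads of a library, the core took 4.17% and 4.36% in WT and 4.32% and 5.28% in KO, so the direction was the opposite (a difference of 0.535 percentage points, exact permutation p = 0.667). More peaks were called in the KO list alone than in the WT list alone, and in peaks of both lists the difference was −0.82 percentage points.

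Nearly every core peak lay within acetylated chromatin. H3K27ac peaks held the centre of 5891 core peaks (98.9%), 5696 distinct peaks in all, against 96.8% of the upstream, 97.1% of the downstream and 61.0% of the body peaks. Their median width was 2160 bp, against 669 bp over all 55798 tested H3K27ac peaks. The H3K27ac library labelled WT female had 15.9% of its reads in peaks, against 61.1% to 65.3% in the other 3. At core peaks the median H3K27ac peak held 109.5 and 173 reads in WT against 410 and 368 in KO. With edgeR's quasi-likelihood test and Benjamini-Hochberg adjustment, 0 of 5696 passed an adjusted p of 0.05, against 13 of all tested H3K27ac peaks (0.0233%). Without adjustment 214 (3.76%, against 4.95% of all) had a p under 0.05, 151 higher and 63 lower in KO. Over all tested H3K27ac peaks the split was the opposite, with 756 higher and 2008 lower. At core peaks DESeq2 called 6. Without the library labelled WT female 71 were called, and without the WT male, which leaves the poorly enriched library as the WT sample, 732. Without either KO pool the count was 0.

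Rpb2 and H3K27ac differences between genotypes went little together across core peaks. Spearman's correlation of the log2 fold changes was 0.025 over 5891 core peaks, whose pools share no libraries between the marks but share peak positions, and 50.2% had the same sign. Levels themselves were related, with a Spearman's correlation of 0.516 for the WT male and 0.539 for the KO male. Where Rpb2 was higher in KO by an unadjusted p under 0.05, the median H3K27ac log2 fold change was 0.14 over 215 peaks, and where it was lower it was 0.09 over 421, against 0.09 over all core peaks. The H3K27ac peak around the *Tnf* core held 168 and 384 reads in WT against 800 and 1015 in KO (log2 fold change 0.38, SE 0.29, adjusted p = 0.816 by edgeR). Around *Auh* it held 26 and 132 reads in WT against 167 and 190 in KO (log2 fold change −0.05, SE 0.46), and around *Irf8* 1264 and 2451 in WT and 5153 and 4872 in KO (0.06, SE 0.34). At all 3 genes the 2 KO libraries held more reads than the 2 WT libraries before scaling to depth and enrichment.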

How the data were processed

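Single-end reads of 51 nt were aligned by the authors to mm10 (Bowtie 2). They retained unique reads, called peaks with HOMER, kept peaks that passed the irreproducible discovery rate between the pools of a genotype and merged both genotypes' lists. They deposited raw read counts of each Rpb2 and H3K27ac library in every merged peak. Input libraries were not used here, and 0 columns of per-sample values were left unused. By the study's methods the 2 pools of a genotype are independent samples.

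From the counts, edgeR (4.0.16, under R 4.3.3, default glmQLFit, then glmQLFTest, with TMM, Benjamini-Hochberg adjustment, threshold 0.05) tested KO against WT with genotype alone over the 10125 Rpb2 peaks within 1000 bp of a TSS, and over 55798 H3K27ac peaks. Peaks averaging under 4 reads in both genotypes were dropped, which took out 0 Rpb2 peaks. TMM factors ran from 0.988 to 1.01. The core-to-body model had terms for library, region and region by genotype. Steps were tested on simulated data. For H3K27ac the simulated spread between libraries was far below the fitted one (dispersion 0.05, against 1.28). For core and body sums it was also below the fitted one. These simulations therefore do not show what either test could find in the real libraries. Chromosome lengths of mm10 were checked against GRCm38.p6, the source of RefSeq sequences and of the share of G and C. Totals of 11662185 to 44332626 reads put the floor of 3 reads at 0.0677 to 0.257 CPM of all reads.

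Genes named by rule were the 6 lowest p in each direction with pools apart, the 10 highest levels, the 2 highest of each list, the 5 lowest p of the core-to-body ratio, members at the window's edges, microglial markers, *Cx3cr1*, *Klhl42*, *Auh* and *Tnf*. Genes given by unadjusted p within the lists, and some others there such as *Il1a*, *Polr2b* and *Nr4a1*, were chosen after their values were seen. The core peaks, the gene lists and the tests were chosen with earlier results of these data known. Alternatives changed the scaling, the tool (DESeq2 1.42.0, likelihood ratio test, limma 3.58.1 for loess offsets), the filter, the set of peaks and each pool in turn. GC offsets, the peaks of both lists and the counts by class with a pool left out were added after seeing the data. Same-label pools did not deviate together (correlation of deviations −0.0014 over tested peaks), and the labels do not say that they share a litter or a day. Other steps ran in Python 3.11.15 with pandas 2.3.3, SciPy 1.17.1, NumPy 2.4.6 and matplotlib 3.10.9. Some genes that the rule names are not reported here.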

Additional observations from a re-analysis of the deposited data

Results flagged for a closer look

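Signal outside the comparisons was found in 1 place. The Rpb2 library labelled WT female held 136 reads in peaks of Y-linked genes, while the other library labelled female, from KO pools, held 0. Its sex label was not changed, and the counts of peaks called, and those by unadjusted p, were also made without it.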

How the results depend on the processing

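The count of core Rpb2 peaks called was 0 with DESeq2's size factors, no TMM, no filter, all peaks, autosomal peaks, GC offsets and peaks of both lists. It was 1 with loess offsets, 5 with at least 10 reads in every library, 14 with DESeq2, 59 with the likelihood ratio test, and 8 to 142 with a pool left out. With the sex label as a replicate block it was 17, and since the labels and the deviations do not pair the pools, this is a count from another model only. Core peaks with an unadjusted p under 0.05 were 428 of the 3695 in both lists and 423 to 820 with a pool left out. Core-to-body ratios called were 1 in peaks of both lists, 48 with the replicate block and 3 to 114 with a pool left out, and those with an unadjusted p under 0.05 were 50 in peaks of both lists and 134 to 394 with a pool left out. H3K27ac peaks called at the core were 6 with DESeq2 and 0 to 732 with a pool left out. The core share differed by 0.535 percentage points as a share of all reads, and by −3.14 to −1.96 as a share of peak reads with a pool left out. With 1 pool of a genotype left, it is assumed to vary like the other genotype.

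The 54 named results, core peaks and core-to-body ratios, had 806 alternative values. Of these, 732 kept their direction and side of the threshold or, at peaks, changed sign by no more than 1 SE. Another 66 passed the threshold in the same direction, and 8, all at peaks, turned by more than 1 SE. With a pool left out, they ran from −0.57 to 0.51 for *Psmb6*, −0.72 to 0.26 for *Pecam1*, −0.05 to 0.43 for *Tmem119* and −0.42 to 0.052 for *Siglech*, turned by leaving out the library labelled WT female. They ran from −0.27 to 0.09 for *Sgk1* and −0.20 to 0.17 for *Btg2* (turned without the WT male), −0.10 to 0.22 for *Rhob* (without the KO male) and down to −0.003 for *Hist1h4c* (without the KO female). The cause was not tested. The block changed no other call. With 2 pools per genotype, an exact test of 1 peak cannot go below 0.33, and core peaks of few reads, such as those of *Spag4* and *Klhl12*, are limited by depth in the WT libraries.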

Other observations

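Most genes with a core peak had no peak credited to them outside the core in the classes examined. Peaks were credited to the gene of the nearest start, so a peak within a gene but nearer to another start was missed. Of the 5828 core genes, 3753 (64.4%) had no further peak in the classes examined, 533 (9.15%) had another further upstream and 597 (10.2%) had one further downstream, each within 1000 bp of the start. Core peaks were also unequal in their reads, with the top 10% taking 30.4% to 31.7% of core reads in the 4 libraries.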
